A study of Rattus norvegicus with 6 samples.

Results

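Glucose uptake, glycolysis and the angiogenic ligand Vegfa were followed through 8 genes in H9c2, a rat line of heart origin with a myoblast character that one label writes as Hc92. The members were fixed as 8 rows of the 26404 gene rows in each count file, by Ensembl rat identifier: Slc2a1 (ENSRNOG00000007284), Hk2 (ENSRNOG00000006116), Tpi1 (ENSRNOG00000015290), Gapdh (ENSRNOG00000018630), Eno1 (ENSRNOG00000017895), Pkm (ENSRNOG00000011329), Ldha (ENSRNOG00000013009) and Vegfa (ENSRNOG00000019598). The symbols come with that definition of the gene set. The files pair no identifier with a name, and the rat gene table used here (RefSeq, GRCr8) lists 47357 genes and holds Ensembl identifiers for 0 of them, so the pairing was not checked against a second source.

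PolyA RNA was sequenced from 6 libraries in 3 groups of 2: cells with an empty vector, cells with a BMPR2 tail domain mutant and cells with a BMPR2 kinase domain mutant. BMPR2 is the type II bone morphogenetic protein receptor, a membrane-spanning serine/threonine kinase whose cytoplasmic part ends in an extended tail. The design text describes the mutant cells as lacking the tail or the kinase domain, and the empty vector serves both as control. The labels give no treatment, dose or time, do not say how the mutants were introduced, and do not state that replicates are separate cultures. P-values thus cover the variation among these libraries alone, and this variation may be technical. Without symbols for other rows, neither the level of Bmpr2 nor the muscle markers of the line were looked up.

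The total count in genes lay between 19116082 and 24936136 per library. Tail mutant replicate 2 stood apart from the other mutant libraries on the second principal component of log2 CPM, at -60.9 against -1.24 to 37.1. The members together took between 0.0586% and 0.118% of the counts in genes, the highest share being that of tail mutant replicate 2. Levels are given as CPM, a gene's counts relative to the library total, scaled by TMM, edgeR's correction for library composition. A difference is a fitted log2 fold change from edgeR's quasi-likelihood test over 12221 genes, with its standard error (SE), and passed where its Benjamini-Hochberg adjusted p was below 0.05.

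Glycolysis converts glucose to pyruvate and lactate in the cytoplasm. Slc2a1 encodes GLUT1, the transporter that carries glucose across the plasma membrane, and Hk2 encodes the hexokinase that phosphorylates glucose and so retains it in the cell. Tpi1 encodes triosephosphate isomerase. Gapdh, Eno1 and Pkm encode glyceraldehyde-3-phosphate dehydrogenase, enolase and pyruvate kinase of the lower pathway. Ldha encodes a subunit of lactate dehydrogenase, which turns pyruvate into lactate. Vegfa encodes a secreted ligand that drives endothelial growth and vessel permeability. These genes are known as targets of the hypoxia-inducible factors, and heart muscle uses glycolysis most before birth and under low oxygen.

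Hypoxia-inducible factors are known to bind DNA at a short core, ACGTG or GCGTG. All 8 members matched a promoter in the RefSeq table (GRCr8), which is not the build of the counts. Within 250 bases before a listed transcript start, ACGTG on either strand was found for 3 of the 8 members, while 16.6% of 33469 promoters held it. GCGTG was found for 4 of the 8, with 3 matches in Slc2a1, 2 in Gapdh, 1 in Ldha and 1 in each of 2 listed windows of Eno1, while 25.9% of promoters held it. Either core was found for 4 of the 8 members and for 36.7% of promoters. Members were counted as genes, with Eno1 and Vegfa having 2 listed windows each, while the shares count single promoters, so the units differ. The stretches around the ACGTG matches are shown for every member that held one. Slc2a1 was among the members that stood highest in the mutants relative to empty vector. Gapdh and Ldha had the smallest log2 differences of the tested members in the tail mutant, 0.30 and 0.27. Vegfa, close to Slc2a1 in the tail mutant, held neither core in its 2 listed windows, and sequence further from the start was not searched. Whether the cores bear on the differences was not tested. Sequences run 5′ to 3′ on the gene's strand, and capitals mark the ACGTG matches.
Slc2a1: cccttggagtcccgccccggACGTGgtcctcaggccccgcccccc
Gapdh: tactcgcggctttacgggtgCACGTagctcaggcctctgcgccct
Ldha: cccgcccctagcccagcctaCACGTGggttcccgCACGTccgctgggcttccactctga
They lie at chr5:138002451-138002495 on the plus strand, chr4:159652564-159652608 on the minus strand and chr1:106507985-106508043 on the plus strand. In Ldha the run CACGTG reads the same on both strands and was counted as a match on each, giving 3 matches with the second run. Neither core lay in the windows of Hk2, Tpi1, Pkm and Vegfa, which says only that these letters are not there. Binding was not measured.

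No member passed the adjusted test in any of the 3 comparisons. Slc2a1 and Vegfa stood highest relative to empty vector, each close to 2-fold higher in the tail mutant, and every mutant library lay above both empty vector libraries for them. For Hk2, Gapdh, Eno1, Pkm and Ldha the differences were smaller or rested on tail mutant replicate 2. Tpi1 had 0 counts in every library. The plot of levels by library shows these patterns.

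**Figure D1:**
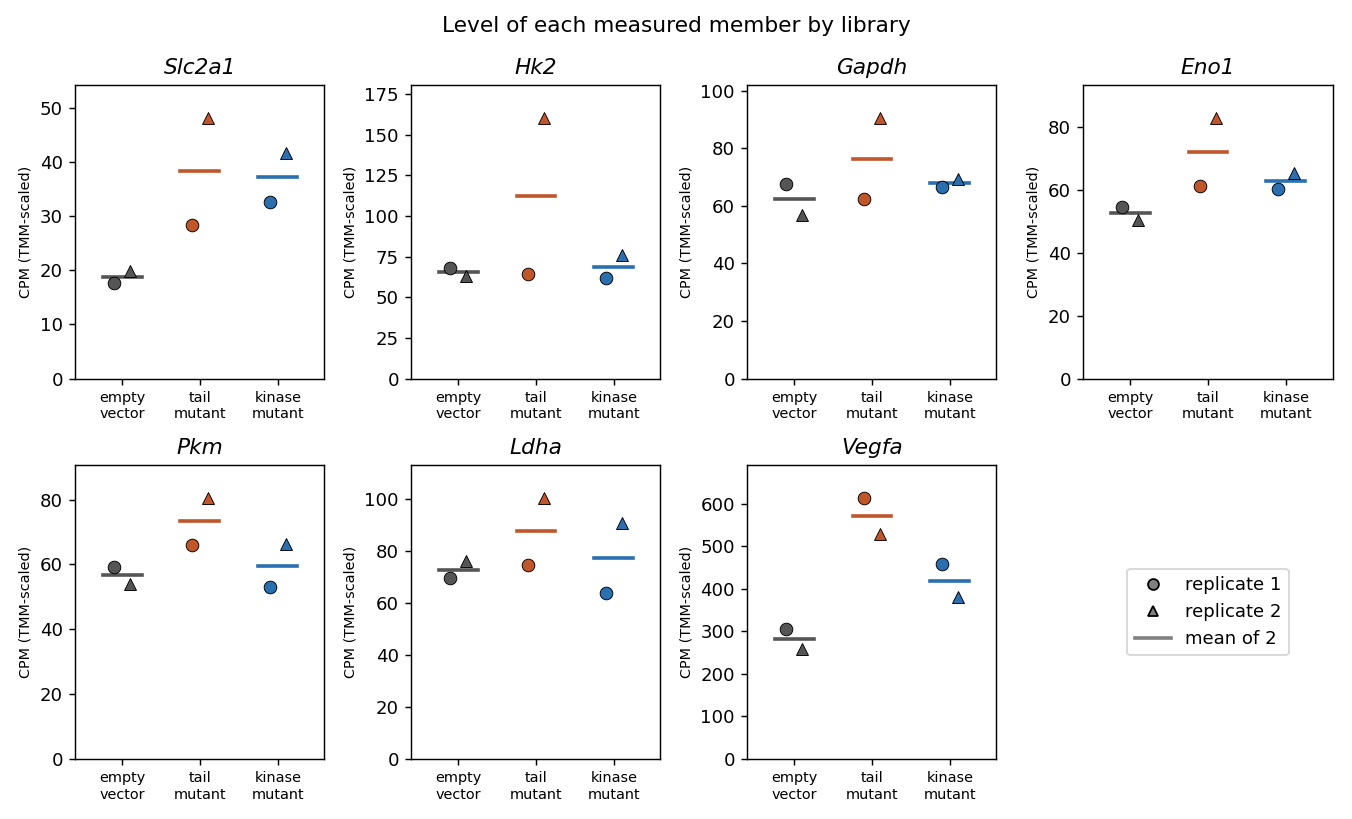
TMM-scaled CPM of the 7 members with counts, 1 panel per gene with its own linear axis from 0; circles are replicate 1, triangles replicate 2 and bars the mean of 2 libraries. Slc2a1, Eno1 and Vegfa in all 4 mutant libraries lie above both empty vector libraries, and Hk2 in tail mutant replicate 2, at 161 CPM, lies far above the other 5 libraries.

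The glucose transporter Slc2a1 had 479 and 409 counts in the empty vector libraries, 623 and 999 in the tail mutant and 658 and 858 in the kinase mutant. Scaled, these were 17.8 and 19.9 CPM, 28.4 and 48.3 CPM, and 32.7 and 41.8 CPM. The lowest mutant library, tail mutant replicate 1, was 1.42 times the higher empty vector library, and the tail and kinase libraries overlapped. The mean (± SD, n = 2) was 18.9 ± 1.55 CPM for empty vector, 38.3 ± 14.0 CPM for the tail and 37.3 ± 6.42 CPM for the kinase mutant.

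The log2 difference of Slc2a1 from empty vector was 1.02 ± 0.29 (SE) in the tail mutant, with a p of 0.0116 in edgeR and an adjusted p of 0.463, so it did not pass. In the kinase mutant it was 0.98 ± 0.29 (SE), with a p of 0.0138 in edgeR and an adjusted p of 0.366. The mutants share their empty vector libraries, so these values are not independent of each other. A difference of the size seen in the tail mutant was exceeded by 8.53% of tested genes, and that in the kinase mutant by 9.32%. Between the mutants the difference was 0.041, with a 95% interval from -0.65 to 0.74. Tail mutant replicate 2 weighed on the first value: without it the difference from empty vector was 0.59, and without tail mutant replicate 1 it was 1.35.

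Hk2, the hexokinase at the entry of the pathway, was counted 1828 and 1299 times in empty vector, 1414 and 3325 times in the tail mutant and 1240 and 1559 times in the kinase mutant. The scaled levels were 67.7 and 63.4 CPM, 64.5 and 161 CPM, and 61.6 and 75.9 CPM. One library stood out: tail mutant replicate 2 was 2.12 times the next highest library, while tail mutant replicate 1 lay between the empty vector libraries. The groups therefore overlapped in each comparison.

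The log2 difference of Hk2 between the tail mutant and empty vector was 0.78 ± 0.41 (SE), with an edgeR adjusted p of 0.675, and it was -0.023 without tail mutant replicate 2. Within the tail mutant the replicates differed 2.48-fold, a gap exceeded by 5.88% of tested genes in that group. In the kinase mutant Hk2 differed from empty vector by 0.069, with a 95% interval from -0.93 to 1.07. All groups share 1 estimate of the spread for each gene, so the gap between the tail mutant replicates enters that interval too.

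Next in the order of the members came a row without data. Tpi1, the isomerase that interconverts the triose phosphates, had 0 counts in all 6 libraries, where 0 counts allow up to 0.111 to 0.149 CPM (3 counts, counting error only). The row did not pass the filter and was not tested. HTSeq's tally kept alignments that were not unique out of every gene, and these made up 27.3% to 31.5% of all rows' total. In the RefSeq table, Tpi1 has 3 pseudogenes named after it, Gapdh 81, Eno1 31, Ldha 30 and Pkm 19, and Slc2a1, Hk2 and Vegfa have 0. Genes with near-identical copies can lose reads this way, so the levels of Tpi1, Gapdh, Eno1, Pkm and Ldha are uncertain. The part of these copies in the counts was not tested.

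Gapdh, a dehydrogenase also widely used as a reference gene, stood at 67.7 and 56.9 CPM (empty vector), 62.2 and 90.7 CPM (tail mutant) and 66.5 and 69.3 CPM (kinase mutant). Tail mutant replicate 2 was the highest library, and the other 5 lay between 56.9 and 69.3 CPM, so mutant and control libraries overlapped. The tail mutant differed from empty vector by 0.30 ± 0.23 (SE) on the log2 scale, with an edgeR adjusted p of 0.763. Without tail mutant replicate 2 that difference was -0.00079.

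Eno1, the enolase that forms phosphoenolpyruvate, was at 54.5 and 50.6 CPM (empty vector), 61.2 and 83.0 CPM (tail mutant) and 60.2 and 65.5 CPM (kinase mutant). It was the only enzyme of the set for which all 4 mutant libraries lay above both empty vector libraries, the lowest by a factor of 1.10. This separation held with RLE and upper-quartile factors, other corrections for library composition. The lowest mutant library was then at 60.1 and 60.0 CPM, and the higher empty vector library at 54.1 and 55.4 CPM. The separation was lost without such a correction. With totals alone, empty vector replicate 1 stood at 59.0 CPM, above tail mutant replicate 1 at 58.9 CPM and kinase mutant replicate 1 at 56.4 CPM. The log2 difference was 0.46 ± 0.20 (SE) in the tail mutant, with an edgeR adjusted p of 0.597. In the kinase mutant it was 0.26 ± 0.20 (SE), with an edgeR adjusted p of 0.666. Without tail mutant replicate 2 the first value was 0.22.

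Pkm, the pyruvate kinase that ends the pathway, had levels of 59.3 and 53.9 CPM (empty vector), 66.1 and 80.5 CPM (tail mutant) and 53.0 and 66.2 CPM (kinase mutant). Both tail mutant libraries lay above both empty vector libraries, and the kinase mutant libraries lay on either side of them. With totals alone, tail mutant replicate 1 at 63.6 CPM lay below empty vector replicate 1 at 64.2 CPM. The tail mutant differed from empty vector by 0.37 ± 0.20 (SE) on the log2 scale, with an edgeR adjusted p of 0.672, and by 0.22 without tail mutant replicate 2.

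Ldha, whose product reduces pyruvate to lactate, had levels of 69.9 and 76.1 CPM (empty vector), 74.9 and 101 CPM (tail mutant) and 63.7 and 90.9 CPM (kinase mutant). The groups overlapped in all comparisons, and in each mutant 1 of 2 libraries lay above both controls. The tail mutant differed from empty vector by 0.27 ± 0.24 (SE), with an edgeR adjusted p of 0.801, and by 0.039 without tail mutant replicate 2. In the kinase mutant the replicates differed 1.42-fold, more than the 1.06-fold between the fitted means of kinase mutant and empty vector.

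Vegfa, the only secreted ligand among the members, had the most counts of the 8, between 5311 and 13461 per library, so that counting error was at most 1.37% of a value. The levels of Tpi1, Gapdh, Eno1, Pkm and Ldha are uncertain for the reason given above, so this order of counts does not rank the members by RNA. Empty vector libraries stood at 306 and 259 CPM, tail mutant libraries at 614 and 529 CPM and kinase mutant libraries at 458 and 380 CPM. The 3 groups did not overlap: both tail mutant libraries lay above both kinase mutant libraries, and these above both empty vector libraries. Unlike the transporter and the enzymes, Vegfa was lower in tail mutant replicate 2 than in replicate 1. The means (± SD, n = 2) were 283 ± 33.4 CPM for empty vector, 571 ± 60.3 CPM for the tail and 419 ± 55.3 CPM for the kinase mutant.

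The log2 difference of Vegfa between the tail mutant and empty vector was 1.02 ± 0.20 (SE), with a 95% interval from 0.52 to 1.51. Its p in edgeR was 0.00229, the smallest of any member in any comparison, and the adjusted p was 0.363, so it did not pass. DESeq2 called it, with a Benjamini-Hochberg adjusted p of 0.000434, alone of the 14 alternatives. In this comparison DESeq2 called 248 of 12221 tested genes, where edgeR called 1. The adjusted p was 0.436 in limma-voom and 0.494 in edgeR with a replicate block. Leaving out each library in turn gave 0.89 to 1.14, and without tail mutant replicate 2 the difference was 1.12.

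In the kinase mutant Vegfa differed from empty vector by 0.57 ± 0.20 (SE) on the log2 scale, with a p of 0.0300 in edgeR and an adjusted p of 0.421. With each library left out it stayed between 0.43 and 0.70. Between the tail and the kinase mutant the difference was 0.45 ± 0.20 (SE), with a 95% interval from -0.046 to 0.94 and an edgeR adjusted p of 0.926. In CPM the order of the 3 groups is thus seen in every library, while none of the steps passed edgeR's adjusted test.

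**Figure D2:**
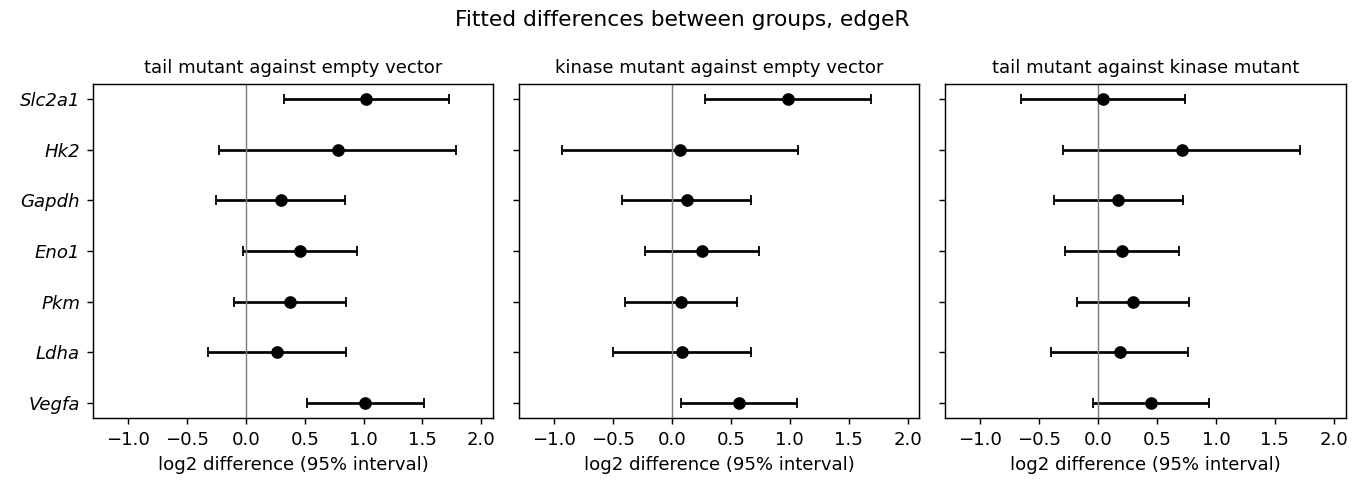
Fitted log2 differences of 7 members in the 3 comparisons (points) with 95% intervals from edgeR, unadjusted for the number of genes; the vertical line marks no difference. Only the intervals of Slc2a1 and Vegfa against empty vector leave out 0, and no adjusted p of a member was below 0.05.

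Across the set, 7 of 8 members could be tested, each with at least 409 counts in every library. The members were chosen with earlier results of these data known. Shares of all tested genes are therefore given beside them as description, here and in the other comparisons. In the tail mutant against empty vector, 0 of 7 were called by edgeR's adjusted test, which called 0.00818% of all tested genes. An unadjusted p below 0.05 was reached by 2 of 7, Slc2a1 and Vegfa, against 8.56% of tested genes. Both tail mutant libraries lay above both empty vector libraries for 4 of 7 members (Slc2a1, Eno1, Pkm and Vegfa) and below for 0, where 18.1% of tested genes lay above and 19.7% below in this way. Of these members, Eno1 and Pkm overlapped with empty vector when libraries were scaled by totals alone. The median log2 difference was 0.46 over the members and 0.0050 over all tested genes, and over the members it was 0.22 without tail mutant replicate 2. All 7 fitted differences were above 0, under each scaling tried, as were those of 50.5% of tested genes. Without tail mutant replicate 2 those of Hk2 and Gapdh were not.

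In the kinase mutant against empty vector, 0 of 7 members were called by edgeR's adjusted test, which called 0.00818% of tested genes, and 2 of 7 (again Slc2a1 and Vegfa) had an unadjusted p below 0.05, against 10.8% of tested genes. Slc2a1, Eno1 and Vegfa lay above empty vector without overlap, 3 of 7, and 0 of 7 below it, where 24.2% of tested genes lay above and 26.4% below. Eno1 overlapped with empty vector when libraries were scaled by totals alone. The median log2 difference was 0.12 over the members and -0.012 over all tested genes. The median over the members moved both ways with the setting. It rose to 0.32 without kinase mutant replicate 1 and to 0.26 without empty vector replicate 1. Dropping replicate 2 of the kinase mutant lowered it to 0.093, with 4 of 7 members above 0. Scaling by totals alone changed its sign, to -0.040, with 3 of 7 above 0. Hk2, Pkm and Ldha were at -0.089, -0.094 and -0.20 when kinase mutant replicate 2 was left out. All 7 fitted values were above 0, as were 48.7% of those of tested genes, but Hk2, Gapdh, Pkm and Ldha lay between only 0.069 and 0.12 and were below 0 with libraries scaled by their totals alone, a scaling that moved the median of all tested genes to -0.17. Relative to that median they were 0.081, 0.13, 0.086 and 0.099, and Slc2a1 and Vegfa 0.999 and 0.58.

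Between the mutants, 0 of 7 members were called by edgeR's adjusted test, where 0% of tested genes were, and 0 of 7 had an unadjusted p below 0.05, against 3.67% of tested genes. Vegfa alone was higher in the tail mutant without overlap, 1 of 7, and 0 of 7 were lower, where 15.2% of tested genes were higher and 14.8% lower, a share near the background. All 7 fitted differences were above 0, as were those of 50.9% of tested genes, and without tail mutant replicate 2 those of Slc2a1, Hk2, Gapdh, Eno1 and Ldha were below 0, as were those of Slc2a1 and Ldha without kinase mutant replicate 1. The widest interval was that of Hk2, from -0.30 to 1.72 on the log2 scale around 0.71, which reaches from 0.815-fold to 3.29-fold. Taking both mutants together, all 4 mutant libraries lay above both empty vector libraries for 3 of 7 members (Slc2a1, Eno1 and Vegfa) and for 11.3% of tested genes, and below both for 0 of 7 members and 13.0% of tested genes. Of these members, Eno1 overlapped with empty vector when libraries were scaled by totals alone.

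Counts of each member were also divided by those of Gapdh in the same library, a measure that no library scaling can change, though the counts of Gapdh are uncertain for the reason given above. Slc2a1 was at 0.262 and 0.351 per Gapdh count in empty vector, at 0.457 and 0.532 in the tail mutant and at 0.492 and 0.603 in the kinase mutant. Vegfa was at 4.53 and 4.55 in empty vector, at 9.87 and 5.83 in the tail mutant and at 6.90 and 5.49 in the kinase mutant. For both genes all mutant libraries stayed above both empty vector libraries, and for Vegfa the order of the 2 mutants was no longer free of overlap. Eno1 was also higher in all mutant libraries, the lowest at 0.905 per Gapdh count against 0.806 and 0.889 in empty vector.

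The enzymes kept close to Gapdh. The ratio for Eno1 ranged only from 0.806 to 0.984 over the 6 libraries, for Pkm from 0.798 to 1.06 and for Ldha from 0.959 to 1.34. In tail mutant replicate 2, where all these genes stood highest in CPM, their ratios of 0.916, 0.888 and 1.11 lay inside the range of the other libraries. Hk2 did not follow: it was at 1.77 per Gapdh count in that library and between 0.927 and 1.11 in the other 5. The ratios by library are plotted beside this comparison.

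**Figure D3:**
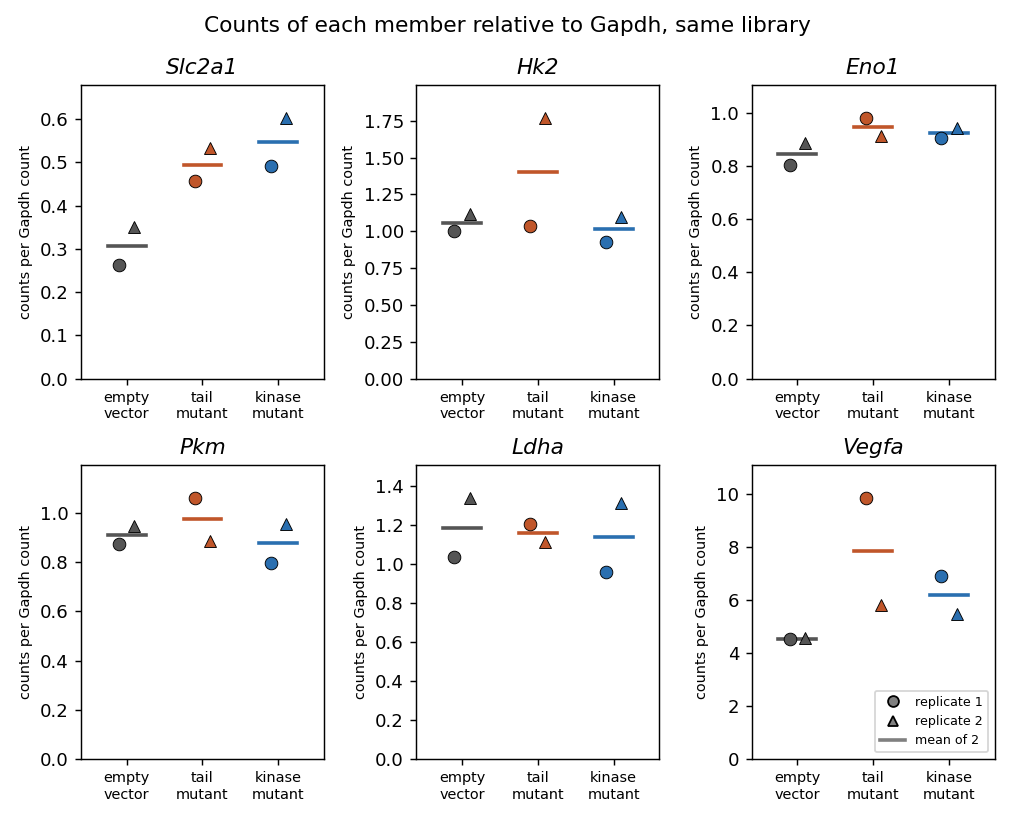
Counts of 6 members per Gapdh count in the same library, linear axes from 0; circles are replicate 1, triangles replicate 2 and bars the mean of 2 libraries. Slc2a1, Vegfa and, by a smaller margin, Eno1 lie higher in all 4 mutant libraries than in empty vector. Eno1, Pkm and Ldha stay near 1, and Hk2 is apart in tail mutant replicate 2 at 1.77.

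Tail mutant replicate 2 was the highest library for 6 of the 7 members counted, all but Vegfa. The summed level of the transporter and the enzymes was 564 CPM there, against 357 CPM in tail mutant replicate 1, 338 and 410 CPM in the kinase mutant and 337 and 321 CPM in empty vector. Kinase mutant replicate 2 was the second highest in this sum. The share of alignments that were not unique was 30.9% in tail mutant replicate 2 and between 27.3% and 31.5% in the other 5 libraries, and its part in these levels was not tested. The plot of leave-one-out values shows how far each difference rested on 1 library.

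**Figure D4:**
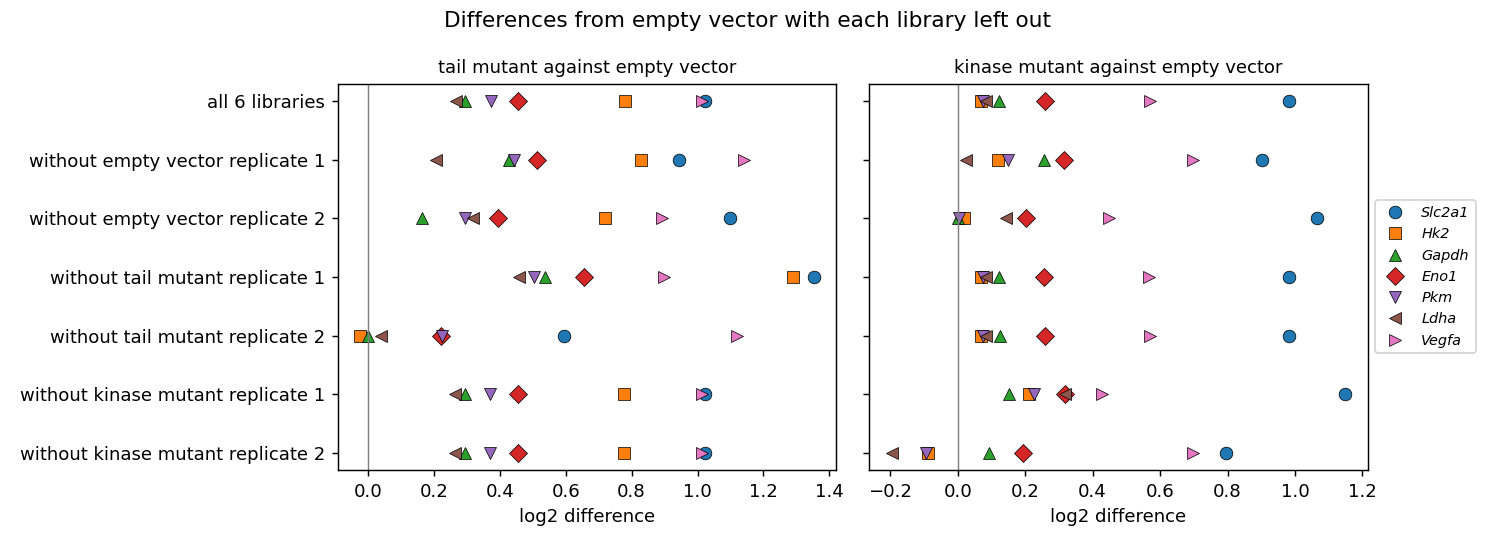
Log2 differences from empty vector (horizontal axis) for 7 members with all 6 libraries and with each library left out in turn (rows), for the tail mutant and the kinase mutant. Without tail mutant replicate 2 the tail mutant values of Hk2, Gapdh and Ldha lie at -0.023, -0.00079 and 0.039, while Vegfa lies at 1.12 and Slc2a1 at 0.59.

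Gaps between replicates were set beside those of all tested genes. In the tail mutant the gap between replicates had a median size of 0.34 on the log2 scale over all tested genes. Gapdh, Eno1, Pkm and Ldha differed between the tail mutant replicates by 0.54, 0.44, 0.28 and 0.42, Slc2a1 by 0.75 and Hk2 by 1.31. Ldha had the widest gap of the members in the kinase mutant, 0.51, where the median over tested genes was 0.23. In empty vector every member differed between replicates by at most 0.25 in size, where the median over tested genes was 0.21.

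Among tested genes outside the set, the rows most like the mean pattern of the transporter and the enzymes were ENSRNOG00000021068 and ENSRNOG00000019180, with Pearson's r of 0.999 and 0.997 of log2 CPM over 6 libraries, given as a description without a test. Of 12214 genes compared, 237 had an r above 0.9, and the pattern turns mostly on tail mutant replicate 2. The second of these rows stood at 278 CPM in that library and between 94.8 and 170 CPM in the other 5. Their names were not looked up here. In these bulk samples fewer cells of a kind and less RNA per cell cannot be told apart.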

How the data were processed

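Each library came as 1 file of whole-number read counts for Ensembl rat genes, not normalized, which the authors made with Trimmomatic 0.33, STAR 2.4.0 and HTSeq 0.6.1p1 on Rnor_5.0, per the submitters' processing notes. Strand setting and annotation release are not given in the labels or files, so antisense reads cannot be told apart. The 5 rows that name no gene were left out; reads in no annotated gene made up 15.4% to 17.5% of each file's total. The tests ran in edgeR 4.0.16 (R 4.3.3), with filterByExpr by group (minimum count 10, total at least 15), TMM, robust quasi-likelihood fit with group as the only term over all 6 libraries (3 residual degrees of freedom), and Benjamini-Hochberg adjustment over 12221 genes. SE is the log2 difference divided by the square root of F. Replicate gaps use log2(CPM + 0.5). Alternatives were DESeq2 1.42.0, limma-voom (limma 3.58.1), other scalings, no filter, 4 libraries only, a replicate block and each library left out. Fits were tested on simulated data. Replicates differed beyond sampling noise (mean chi-square per gene of 59.2 to 176). The members and lists were chosen with earlier results of these data known. All 8 members are named. Outside them, the rule took the 2 genes closest to the mean pattern. Lists of other pathway genes and markers, set by symbol, matched 0 identifiers and were not tested. Motifs and pseudogene names were searched by letters in RefSeq tables (GRCr8).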

Additional observations from a re-analysis of the deposited data

Results flagged for a closer look

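Reads in no annotated gene lie outside the gene counts and made up a larger share of each mutant library than of either empty vector library. Tail mutant libraries had 16.2% and 17.5%, kinase mutant libraries 17.4% and 16.1%, and both empty vector libraries 15.4%. With 2 libraries a group, no test for outlying libraries was made.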

How the results depend on the processing

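Over 14 alternatives for each of 21 member differences (294 values), 277 kept direction and side of the threshold, 16 changed sign and 1, Vegfa in the tail mutant with DESeq2, passed. With libraries scaled by totals alone, the kinase mutant's differences from empty vector were -0.092 for Hk2, -0.040 for Gapdh, -0.087 for Pkm and -0.074 for Ldha; the all-gene median was then -0.17. Leaving out 1 library gave ranges that crossed 0. For the tail mutant against empty vector these were -0.023 to 1.29 (Hk2) and -0.00079 to 0.54 (Gapdh). For the kinase mutant they were -0.089 to 0.21 (Hk2), -0.094 to 0.23 (Pkm) and -0.20 to 0.32 (Ldha). Between the mutants they were -0.39 to 0.37 (Slc2a1), -0.092 to 1.22 (Hk2), -0.12 to 0.41 (Gapdh), -0.037 to 0.40 (Eno1) and -0.053 to 0.46 (Ldha).

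Genes called by edgeR numbered 1 in the tail mutant, 1 in the kinase mutant and 0 between the mutants (1046, 1322 and 448 at an unadjusted p below 0.05). DESeq2 called 248, 361 and 12. Limma-voom called 0, 0 and 0, as did edgeR on only the 4 libraries compared. Without a filter edgeR called 9, 2 and 0, and with totals alone 3, 1 and 0. With the replicate block it called 2, 2 and 0. The block rests on shared numbers only: replicate differences correlated at 0.12, -0.13 and -0.35 between groups. Leaving out 1 library gave 0 to 20 calls in the tail mutant, the 20 without tail mutant replicate 1, and 0 to 2 in the kinase mutant; the cause was not tested. Of 126 levels under other scalings, 119 moved by less than 1 SD. Each of the 7 members tested had at least 409 counts per library; why Tpi1 had 0 was not tested.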
